A study of Mus musculus with 6 samples.

Results

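The AP-1 transcription factors were followed in RNA from cells labelled HL-1, a mouse atrial muscle line. These cells were labelled either tachypaced (driven electrically at a high rate) or control. The factors were taken as the rows of the deposited expression table named Fos, Fosb, Fosl1, Fosl2, Jun, Junb, Jund, Atf3, Batf and Maff. All 10 names were found among the 23060 rows, and 9 passed the filter for testing, a mean of at least 1 FPKM over all libraries, as did 10361 rows in all. There were 3 tachypaced and 3 control libraries, both from cells labelled wild type and grown in Claycomb medium with serum, antibiotics, norepinephrine and glutamine, so controls also carried the adrenergic agonist. The pacing rate, its duration and the delay before harvest are not given in the labels. Nothing there says that replicates were separate cultures, so p-values measure only the spread between these libraries. FPKM gives fragments scaled by gene length and by library size, so levels can be compared between genes, and read depth is unknown.

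AP-1 is a dimer of basic leucine zipper (bZIP) proteins that binds the DNA site TGACTCA and, with some partners, the cyclic AMP response element (CRE) TGACGTCA. Jun proteins pair with each other or with Fos proteins, and Fos proteins need a partner of another kind. Fos and Jun are classic immediate early genes, whose transcripts rise and decay quickly after a stimulus, and MAP kinases raise both their transcription and the activity of their proteins. In macrophages AP-1 acts beside the lineage factor Spi1 in inflammatory gene expression, and in heart muscle it responds to stretch, hormones and electrical activity.

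The label was checked against marker genes before the results. Of 16 cardiomyocyte markers, 7 were listed at 0 in every library, among them Myh6, Actc1, Myl7, Nkx2-5 and Gata4, and the 16 summed to between 3.73 and 4.02 FPKM in tachypaced and between 3.22 and 4.07 FPKM in control libraries. The 10 macrophage markers summed to between 1393 and 1551 FPKM in tachypaced and between 1091 and 1260 FPKM in control libraries. Of the 8 macrophage markers tested, 3 rose, Cd14, Lyz2 and Ctss, and 0 fell by limma. Beside them, 2.3% of all tested genes rose and 3.22% fell at an adjusted p under 0.05. At an unadjusted p under 0.05, 7 of the 8 were higher and 0 lower, against 10.8% and 19.4% of all tested genes. The other tested marker, Csf1r, had a log2 difference of -0.008. Fibroblast markers summed to at most 0.144 FPKM and endothelial markers to at most 1.93 FPKM in any library. The share of FPKM from the mitochondrial genome was 9.001% to 9.72% in tachypaced and 7.91% to 8.42% in control libraries. Tnni3 alone among the cardiomyocyte markers averaged at least 1 FPKM, and the macrophage markers Fcgr1 and Mertk did not. The markers thus go against the label: most transcripts that define heart muscle were at or near 0, and most of those of macrophages were abundant in both groups. Whether the libraries come from HL-1 cells was not tested. In bulk RNA, fewer cells of a type and less RNA per cell cannot be told apart, and the part of these shifts in the values below was not tested. Control replicate 1 stood apart: across tested genes it correlated at 0.995 with tachypaced replicate 3, above the 0.992 and 0.990 with control replicates 2 and 3, so results are also given without it.

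In both groups the Jun genes and Atf3 supplied most AP-1 transcript, while Fos, the founding member, was low. Jund, usually the most steadily expressed Jun gene, stood at 229, 251 and 233 FPKM in tachypaced libraries, against 211, 233 and 207 FPKM in controls. Jun, the main target of the JNK kinases, stood at 119, 130.2 and 123 FPKM in tachypaced libraries and at 125, 111 and 106 FPKM in controls. Both sets overlapped, and for Jun it was control replicate 1 that reached into the tachypaced range. Junb, which can restrain Jun activity, stood at 71.4, 77.9 and 74.1 FPKM in tachypaced libraries and at 65.7, 78.02 and 70.9 FPKM in controls. The Junb groups overlapped through control replicate 2, the highest of all 6 libraries, while the other controls lay below every tachypaced library.

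Atf3, a stress-induced factor that pairs with Jun proteins and often represses, stood at 111, 119.6 and 106 FPKM in tachypaced libraries, against 98.6, 86.3 and 80.002 FPKM in controls. Every tachypaced library lay above every control, and control replicate 1 was the nearest of the controls. Maff, a small Maf protein without an activation domain, stood at 12.2, 11.2 and 12.1 FPKM in tachypaced libraries, against 11.1, 9.62 and 8.80 FPKM in controls. The Maff groups met without overlapping, with control replicate 1 directly below tachypaced replicate 2. Batf, a Jun partner known from lymphocytes and dendritic cells, was listed at 0, 0.0999 and 0.366 FPKM in tachypaced libraries and at 0, 0.113 and 0 FPKM in controls, too low to test.

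Among the Fos genes, Fosl2 was the highest, at 28.1, 30.5 and 31.2 FPKM in tachypaced libraries, against 26.7, 24.9 and 25.03 FPKM in controls. Fosl2 encodes Fra-2, which lacks the strong activation domain of Fos, and its groups did not overlap. Fos itself stood at 4.70, 5.25 and 5.06 FPKM in tachypaced libraries and at 5.12, 5.32 and 5.20 FPKM in controls, with 2 of the 3 tachypaced libraries below every control. Fosb, a close relative of Fos, stood at 3.07, 3.13 and 2.93 FPKM in tachypaced libraries and at 2.57, 2.79 and 2.54 FPKM in controls, without overlap. Fosl1, which encodes Fra-1, stood at 2.02, 2.91 and 1.84 FPKM in tachypaced libraries and at 1.66, 1.54 and 1.61 FPKM in controls. The Fosl1 groups were also separate, and tachypaced replicate 2 was well above the others.

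**Figure D1:**
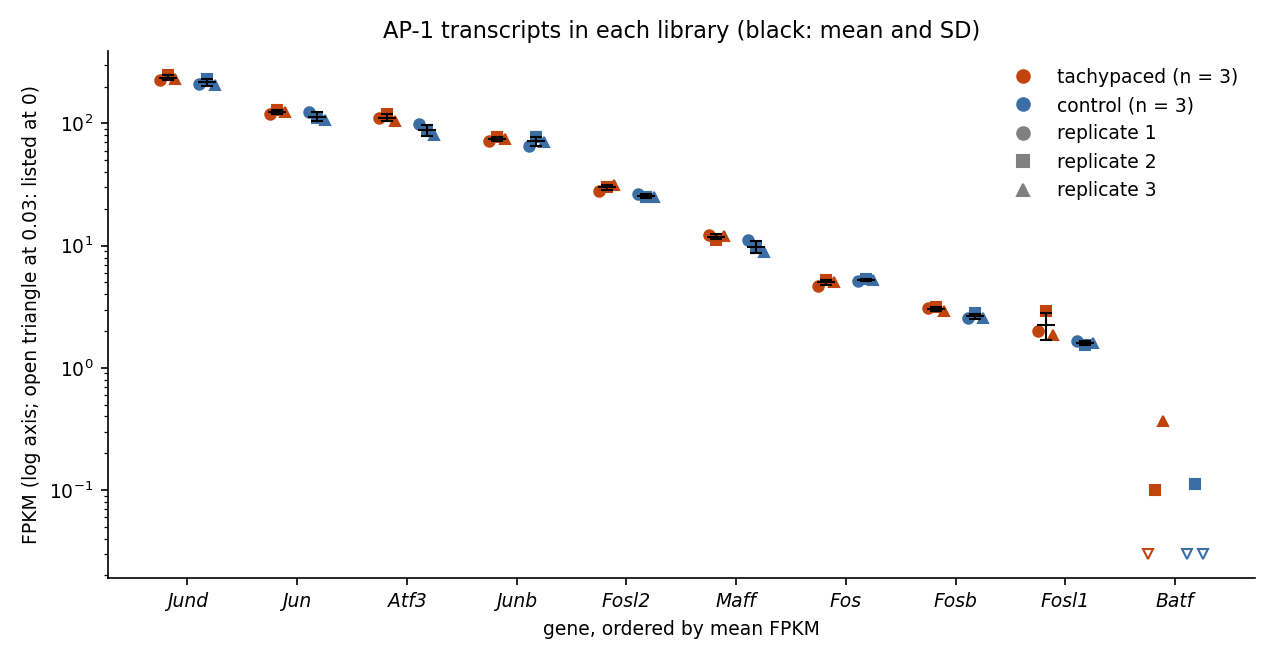
FPKM (log axis) of the 10 AP-1 genes in each tachypaced (left, orange) and control (right, blue) library, ordered by mean, with the mean and SD of 3 libraries in black and open triangles for values listed at 0. Jund lies between 207 and 251 FPKM and Fosl1 between 1.54 and 2.91 FPKM, and Batf is listed at 0 in 3 libraries.

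By mean FPKM the order was Jund, Jun, Atf3, Junb, Fosl2, Maff, Fos, Fosb, Fosl1 and Batf in both groups. All neighbours in that order had separate ranges within each group except Jun and Atf3 in tachypaced libraries, at 124 ± 5.58 and 112 ± 7.07 FPKM (SD, n = 3), whose ranges overlapped. In controls Jun and Atf3 averaged 114 ± 9.54 and 88.3 ± 9.43 FPKM (SD, n = 3) with separate ranges. Jund ranked between 224 and 252 among all rows in the 6 libraries, Fos between 7257 and 7550. The coefficient of variation over all 6 libraries was lowest for Fos, at 4.32%, and highest among the tested members for Fosl1, at 26.4%. Atf3 followed Fosl1 with 14.9%.

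Atf3 was the single member that passed the test. Its level was 112 ± 7.07 FPKM in tachypaced and 88.3 ± 9.43 FPKM in control libraries (SD, n = 3 each), a log2 difference of 0.34 (SE 0.08, 1.27-fold, limma-trend adjusted p = 0.0478). Of the 9 tested members 1 rose and 0 fell, where 2.3% of all tested genes rose and 3.22% fell at an adjusted p under 0.05. At an unadjusted p under 0.05, 4 of the 9 were higher and 0 lower, against 10.8% and 19.4% of all tested genes. In either direction 5.52% of all tested genes passed, 238 higher and 334 lower. With median of ratios scaling these were 221 and 184, with quantile normalization 13 and 4, and with a common total per library 250 and 924. With 3 libraries a side, the smallest p that exact permutation allows is 0.1, so that test was left aside.

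The call of Atf3 lay close to the threshold and was made in 7 of 16 fits. It was lost without a filter on low values (adjusted p = 0.129), with median of ratios scaling (0.0508), with quantile normalization (0.0584), without the trend (0.0687) and on leaving out any library other than control replicate 1 (0.0769 to 0.176). Its log2 difference ran from 0.27 to 0.42 over these fits.

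The members that did not pass differed in how closely they were bounded. Fosl2 had a log2 difference of 0.22 (95% interval 0.08 to 0.36, adjusted p = 0.0633) and Maff of 0.25 (0.06 to 0.44, adjusted p = 0.0946) by limma. Fosl1 had the widest interval, 0.03 to 0.58, around a log2 difference of 0.31 (adjusted p = 0.128). For Fosb and Jund the differences were 0.15 (interval -0.02 to 0.33) and 0.13 (interval -0.01 to 0.27), both with an adjusted p of 0.201. Jun had a difference of 0.12 (interval -0.03 to 0.28, adjusted p = 0.250) and Junb of 0.06 (interval -0.10 to 0.22, adjusted p = 0.597). Fos was the only tested member with a lower mean in tachypaced libraries, at -0.05 (interval -0.21 to 0.11, adjusted p = 0.655). With the pseudocount of 1, differences of the low genes Fos, Fosb and Fosl1 come out too small, and no interval is adjusted for the number of genes.

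**Figure D2:**
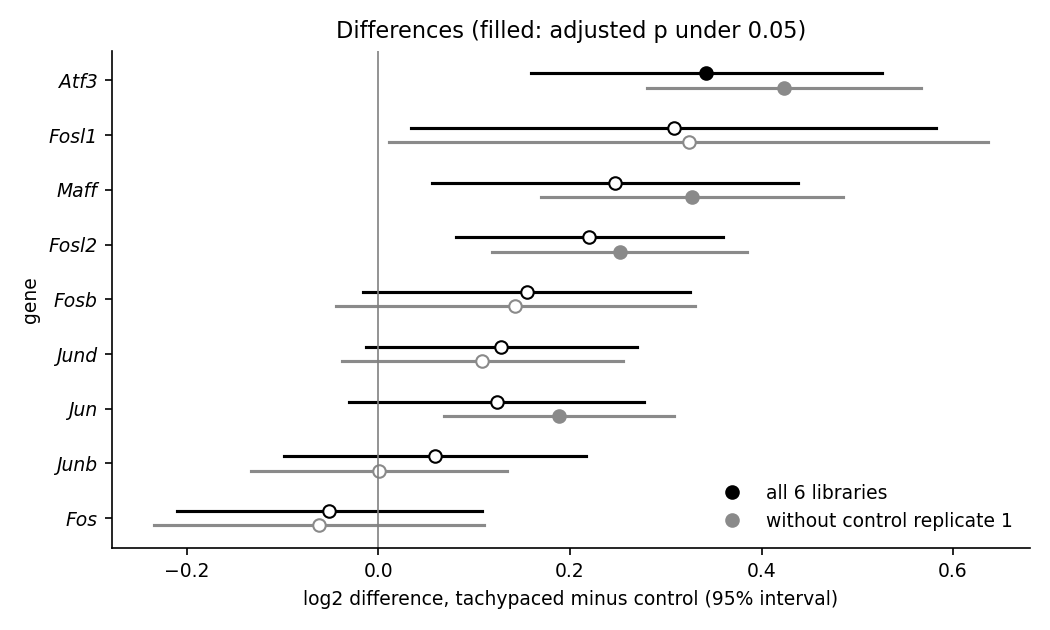
Log2 difference of tachypaced minus control libraries with its 95% interval for the 9 tested AP-1 genes, from all 6 libraries (black) and without control replicate 1 (grey), filled where the adjusted p is under 0.05. With all libraries only Atf3 is filled, and without control replicate 1 Atf3, Maff, Fosl2 and Jun are.

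The direction was more uniform than the calls. The median log2 difference of the 9 tested members was 0.15, beside -0.04 for all tested genes, and 8 of 9 had a higher mean in tachypaced libraries, as had 41.1% of all tested genes. The tachypaced and control ranges did not overlap for 5 of the 9, Atf3, Maff, Fosl2, Fosb and Fosl1, all with tachypaced higher. Separate ranges were found for 34.9% of all tested genes, and for 12.6% with tachypaced higher. In these counts the members share libraries and are not independent of each other.

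Without control replicate 1, 4 of the 9 members rose and 0 fell, where 11.2% of all tested genes rose and 18.8% fell. Atf3 then had a log2 difference of 0.42 (adjusted p = 0.00231), Maff of 0.33 (adjusted p = 0.00970), Fosl2 of 0.25 (adjusted p = 0.0141) and Jun of 0.19 (adjusted p = 0.0275) by limma. On a scale where the mean of the other controls is 0 and that of the tachypaced libraries 1, control replicate 1 stood at 1.04 for Jun, 0.73 for Maff, 0.57 for Atf3 and 0.38 for Fosl2. For Jund and Fosb it stood below the mean of the other controls, at -0.54 and -0.24, but between their values. Junb had a difference of 0.0004 without this library. Since this control lay closest to the tachypaced libraries, the larger counts without it are no added support.

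**Figure D3:**
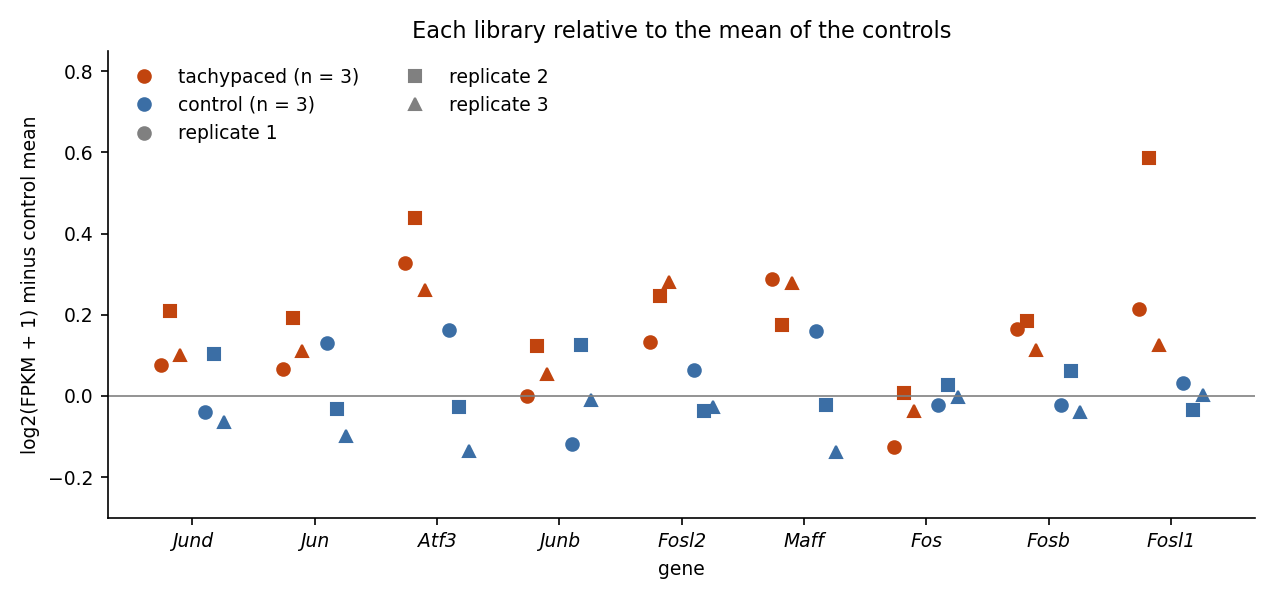
Log2(FPKM + 1) of each tachypaced (left, orange) and control (right, blue) library minus the mean of the 3 controls, for the 9 tested AP-1 genes, with the marker shape giving the replicate. Control replicate 1 (blue circles) lies toward the tachypaced libraries for Jun, Atf3, Fosl2 and Maff and below the control mean for Jund and Junb.

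Summed over all 10 members, AP-1 transcript came to 580.1, 631 and 589 FPKM in tachypaced libraries, against 547, 553 and 508 FPKM in controls. The means were 600.2 ± 27.4 FPKM in tachypaced and 536 ± 24.8 FPKM in control libraries (SD, n = 3 each), without overlap. Total FPKM over all rows was also separate, at 419557 to 432244 in tachypaced and 411050 to 416820 in control libraries. The difference of the AP-1 means was 64.1 FPKM as deposited, 48.4 FPKM at a common total per library and 75.7 FPKM with median of ratios scaling. Jun, Junb and Jund together held 72.3% to 73.0% of the AP-1 sum in tachypaced and 73.4% to 76.4% in control libraries. The 4 Fos genes held 6.53% to 6.97% in tachypaced and 6.24% to 6.77% in control libraries. The Jun genes exceeded them 10.5 to 11.07 times in tachypaced and 11.13 to 12.2 times in control libraries. Those ranges nearly met but did not overlap, and the difference was not tested. Atf3 alone held 17.9% to 19.1% in tachypaced and 15.6% to 18.01% in control libraries, ranges that overlap through control replicate 1.

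Ratios within a library do not move with its scaling, and some separated the groups. The ratio of Fosl2 to Fos was 5.98, 5.81 and 6.18 in tachypaced libraries, against 5.22, 4.67 and 4.82 in controls. The ratio of Atf3 to Jun was 0.929, 0.919 and 0.858 in tachypaced libraries, against 0.791, 0.775 and 0.754 in controls. Fos held 0.810% to 0.859% of the family sum in tachypaced libraries, against 0.935% to 1.02% in controls. The ratio of Jund to Jun did not separate the groups, at 1.89 to 1.93 in tachypaced and 1.69 to 2.10 in control libraries. The ratio of Jun to Fos did not either, at 24.3 to 25.4 in tachypaced and 20.4 to 24.4 in control libraries, nor did that of Junb to Jun, at 0.598 to 0.602 in tachypaced and 0.527 to 0.701 in control libraries. These ratios were chosen after their values were seen and were not tested.

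**Figure D4:**
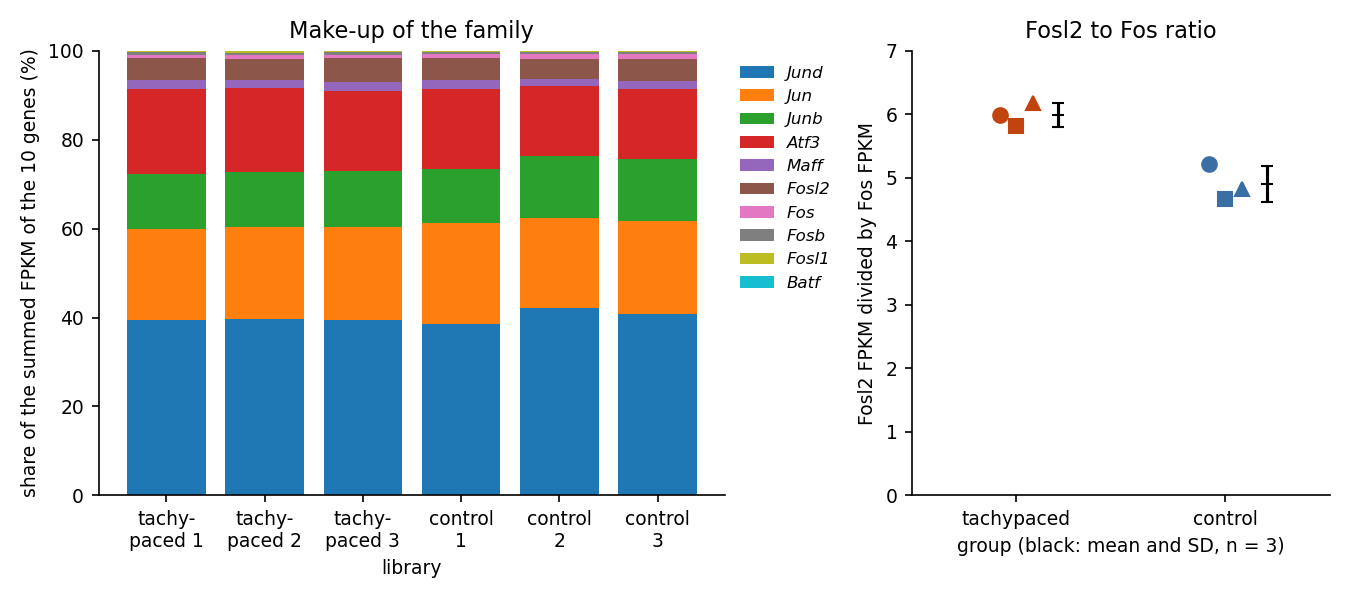
Left, share in percent of the summed FPKM of the 10 AP-1 genes held by each gene in each tachypaced and control library; right, Fosl2 FPKM divided by Fos FPKM, with the mean and SD of 3 libraries in black. Jund, Jun, Junb and Atf3 fill most of every bar, and the Fosl2 to Fos ratio is at least 5.81 in tachypaced and at most 5.22 in control libraries.

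Gene positions are those of GENCODE M21 (GRCm38, the build of the table). Atf3 lies on chromosome 1 (191170296 to 191218039, minus strand), Jun on chromosome 4 (95049034 to 95052222, minus strand), Fosl2 on chromosome 5 (32135801 to 32157842, plus strand), Maff on chromosome 15 (79346621 to 79359076, plus strand) and Fosl1 on chromosome 19 (5447547 to 5455946, plus strand). Fos (85473890 to 85477273) and Batf (85686669 to 85709087) are both on the plus strand of chromosome 12, and Junb and Jund are both on chromosome 8. Jun, Junb and Jund each have 1 exon in their principal transcript, the Fos genes and Atf3 have 4, and Batf and Maff have 3. The strand setting of the counting is not given, so reads of overlapping opposite genes cannot be told apart. This touches the highest members too: Gm11175 lies opposite Jund over 919 bp of its 1668 bp, Junos opposite Jun over 689 bp and Gm24748 opposite Atf3 over 108 bp. These opposite genes are not listed by name in the deposited expression table, so their levels could not be checked. Fosl1 overlaps Ccdc85b on the opposite strand over 2767 bp, a gene listed at 6.997 to 8.69 FPKM in tachypaced and 7.43 to 8.44 FPKM in control libraries, so Fosl1 is uncertain. Junb overlaps the end of Prdx2 over 351 bp, at 109 to 125 FPKM in tachypaced and 122 to 136 FPKM in control libraries.

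The promoters are shown because several members carry letters of the sites that bZIP factors bind, directly upstream of their starts. RefSeq (GRCm38.p6) gave 11 windows, from 250 bases before to 50 after a transcript start, for 9 of the 10 members, none for Fosl1. The stretches below end at the base before the start, read 5′ to 3′ on the gene's strand, and have matches in capitals: TGACGTCA (CRE), TGACATCA (the variant known from the Jun promoter) or ACGTCA (the core of the CRE, TGACGT on the other strand), which is part of TGACGTCA.
Atf3, chr1:191183334-191183363, minus strand: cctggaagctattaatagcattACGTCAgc
Jun, chr4:95052223-95052322, minus strand: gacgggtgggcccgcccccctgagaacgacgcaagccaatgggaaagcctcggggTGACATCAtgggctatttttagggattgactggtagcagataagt
Fos, chr12:85473790-85473889, plus strand: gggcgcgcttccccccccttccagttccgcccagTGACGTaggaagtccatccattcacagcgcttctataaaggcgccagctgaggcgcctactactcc
Maff, middle start, chr15:79347420-79347519, plus strand: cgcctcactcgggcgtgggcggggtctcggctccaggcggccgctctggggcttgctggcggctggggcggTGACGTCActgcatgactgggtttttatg
Maff, last start, chr15:79348302-79348401, plus strand: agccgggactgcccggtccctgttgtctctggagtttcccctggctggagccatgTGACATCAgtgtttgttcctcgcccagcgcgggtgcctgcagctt

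The Jun stretch and that of the last Maff start both have TGACATCA beginning 45 bases before the start. The Atf3 match begins 8 bases before the start, where the last bases of the stretch are also exonic in another Atf3 transcript. The whole Atf3 stretch lies within 1 of the 3 annotated Atf3 transcripts. The Fos match begins 66 bases before the Fos start. Both Maff stretches lie within introns of a longer Maff transcript, the Jun stretch lies in no exon but within the antisense gene Junos, and the Fos stretch lies upstream of every annotated Fos transcript. Batf, nearly silent here, also has TGACGT, 98 bases before its start. In all, 6 of the 11 windows had a match, and those of Jund, Junb, Fosl2, Fosb and the first Maff start had none. The windows of Atf3, Fos and Batf matched by ACGTCA alone. The share of all windows with any of these matches was not computed, so the pooled count has nothing to stand beside. Searched on both strands, TGACTCA was found in 5.20% of all 32851 RefSeq windows and in 0 of the 11 member windows. TGACGTCA was found in 1.79% of all windows and, among member windows, only in that of the middle Maff start. TGACATCA was found in 3.62% of all windows and in those of Jun and the last Maff start. ACGTCA was found in 7.51% of all windows and in those of Atf3, Fos, Batf and the middle Maff start. The CArG box of serum response factor was found in 1.63% of all windows and in 0 member windows. Sites more than 250 bases before a start were not searched, so a CArG box further upstream would be missed. The Jund window lies upstream of the start that GENCODE M21 gives, at 70698949. ACGTCA was added to the search after these sequences were seen, and a match is a description of letters, not a bound site.

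Across the 6 libraries the members did not all vary together. Pearson's r of log2(FPKM + 1) ran from -0.65 between Fos and Maff to 0.91 between Jun and Atf3, with 0.88 between Atf3 and Maff and 0.01 between Jun and Junb. These values describe 6 libraries that share the group difference and the placing of control replicate 1. The genes most like Atf3 were Nlrc3 (r = 0.999), Sqstm1 (r = 0.999) and Stap1 (r = 0.999), and 721 of 9690 named genes had an r above 0.9 with it. Most like Jun were Nipal3 (r = 0.999), Edil3 (r = 0.998) and N4bp2l1 (r = 0.994), among 404 above 0.9. Jund was most like Txnl4a (r = 0.987), Mrpl10 (r = 0.985) and Aprt (r = 0.984), with 91 above 0.9.

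The rest of the pathway was described with lists chosen with earlier results of these data known. Of 30 tested genes of the MAP kinase cascade, which relays signals to AP-1, 0 rose and 1 fell by limma, with 1 higher and 6 lower at an unadjusted p under 0.05 and a median log2 difference of -0.05. Over all tested genes 2.3% rose and 3.22% fell, and 10.8% were higher and 19.4% lower at an unadjusted p under 0.05. That gene was Rps6ka1, a ribosomal S6 kinase downstream of ERK, at 33.2, 34.8 and 32.9 FPKM in tachypaced libraries, against 37.6, 44.3 and 43.5 FPKM in controls (log2 difference -0.30, limma adjusted p = 0.0466). The call of Rps6ka1 was lost without a filter on low values, with median of ratios scaling, with quantile normalization, without the trend and on leaving out any library other than control replicate 1. Of 24 tested early response factors and MAP kinase phosphatases, 0 rose and 0 fell by limma, with 7 higher and 0 lower at an unadjusted p under 0.05 and a median of 0.09. Of 22 tested partners and regulators of AP-1 protein, 0 rose and 0 fell by limma, with 2 higher and 4 lower at an unadjusted p under 0.05 and a median of -0.04.

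Of 27 tested genes of the list of other bZIP factors, 1 rose and 1 fell, where 2.3% of all tested genes rose and 3.22% fell. At an unadjusted p under 0.05, 4 of the 27 were higher and 5 lower, against 10.8% and 19.4% of all tested genes. The median log2 difference of the list was 0.02. Cebpb, a C/EBP factor of inflammatory gene expression in macrophages, rose to 75.1, 81.4 and 67.2 FPKM in tachypaced libraries, against 62.1, 60.4 and 53.5 FPKM in controls (log2 difference 0.34, limma adjusted p = 0.0491). Cebpz fell to 8.97, 9.51 and 8.97 FPKM in tachypaced libraries, against 10.96, 11.2 and 11.5 FPKM in controls (log2 difference -0.27, limma adjusted p = 0.0460). It was listed by its name but is not a bZIP protein. Both calls were lost under the same alternatives as that of Rps6ka1. The Batf relatives Batf2 and Batf3, named after their values were seen, averaged 0.368 and 0.399 FPKM in tachypaced libraries and 0.279 and 0.423 FPKM in controls. Jdp2, a repressive Jun partner also named after its values were seen, averaged 49.8 ± 1.53 FPKM in tachypaced and 48.3 ± 2.92 FPKM in control libraries (SD, n = 3 each).

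Of 25 tested genes reported elsewhere as AP-1 targets, 5 rose and 0 fell, where 2.3% of all tested genes rose and 3.22% fell. At an unadjusted p under 0.05, 14 of the 25 were higher and 1 lower, against 10.8% and 19.4% of all tested genes. The median log2 difference of these targets was 0.20. Spp1 (osteopontin, a secreted matrix protein) stood at 14416, 14823 and 12622 FPKM in tachypaced libraries, against 10898, 10104 and 9453 FPKM in controls (log2 difference 0.46). Mmp9, a gelatinase, stood at 4.28, 4.50 and 3.99 FPKM in tachypaced libraries, against 3.18, 2.98 and 2.58 FPKM in controls (log2 difference 0.43). In both genes control replicate 1 was the highest control, as in Atf3 and Cebpb above and in Ptgs2 and Tnf below. Ptgs2 (cyclooxygenase 2) stood at 108, 111 and 101 FPKM in tachypaced libraries, against 90.3, 76.5 and 77.1 FPKM in controls (log2 difference 0.39). Tnf, the inflammatory cytokine, stood at 54.3, 55.6 and 51.7 FPKM in tachypaced libraries, against 46.9, 40.1 and 38.3 FPKM in controls (log2 difference 0.36). These genes had a limma adjusted p of 0.0435, and the fifth, Tgfb1, named after its values were seen, had a log2 difference of 0.28 (limma adjusted p = 0.0452). Many of these genes are expressed by macrophages, of whose markers 3 of the 8 tested rose, and the part of AP-1 in their change was not tested. No target was called without a filter on low values, with quantile normalization, without the trend or on leaving out any library other than control replicate 1. Without control replicate 1, where 11.2% of all tested genes rose and 18.8% fell, 16 of the 25 targets rose and 6 fell, and of the early response list 9 of 24 rose and 1 fell.

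**Figure D5:**
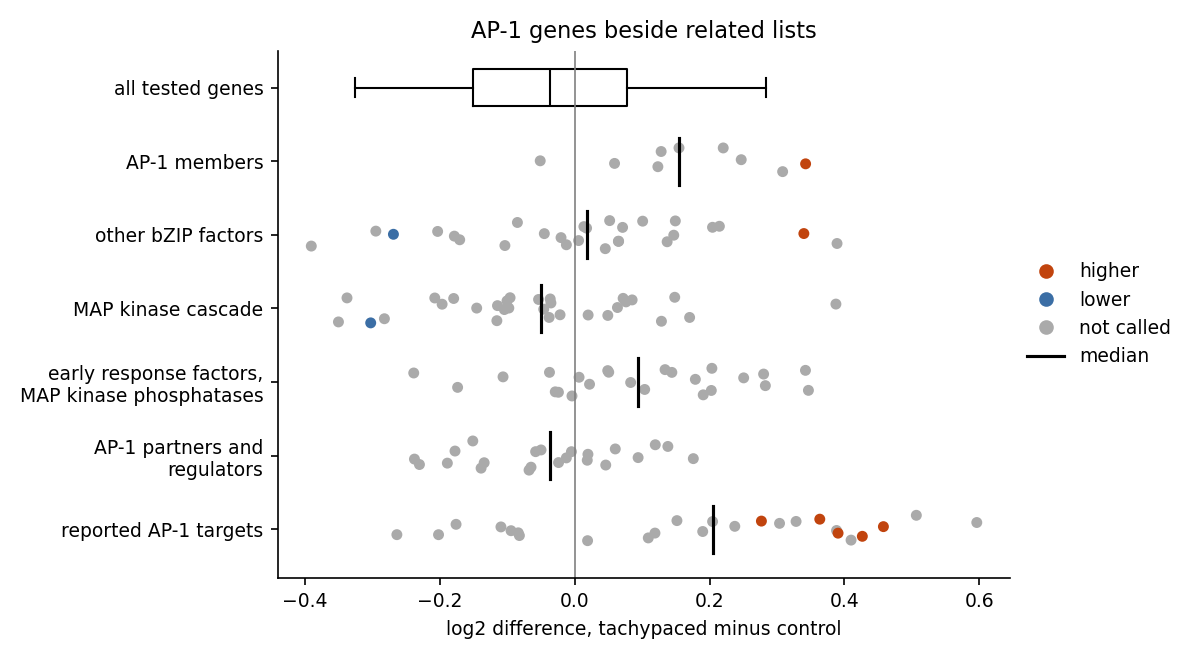
Log2 difference of tachypaced minus control libraries for the tested genes of the AP-1 family and of related lists, with the median as a black line, called genes in colour and, on top, a box (quartiles, whiskers from the 5th to the 95th percentile) of all 10361 tested genes. The AP-1 median is 0.15 and that of reported targets 0.20, beside -0.04 for all tested genes.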

How the data were processed

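FPKM values by gene name and library were deposited by the authors, made from total RNA with a SMARTER mRNA kit per the labels' protocols. The submitters' processing notes name GRCm38 (mm10). No source used here gives the aligner, quantifier, annotation or strand setting. Columns were matched to samples by their descriptions. Low values were searched for a step worth 1 read, but at most 4.45% of their ratios fell in a bin of 0.05 log2, so depth could not be recovered. Testing was on log2(FPKM + 1) for the 10361 genes averaging at least 1 FPKM, with limma 3.58.1 in R 4.3.3 (trend, two-sided, no covariates), Benjamini-Hochberg adjusted over all of them at 0.05. The steps were tested on simulated data with independent noise in each gene and library. Those data held no library like control replicate 1, so they cannot show how stable the calls are.

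Members and lists were chosen with earlier results of these data known. The genes named are all members, up to 4 called genes of each related list with the largest differences, and the 3 genes most correlated with Jund, Jun and Atf3 (the members with the highest mean), leaving out predicted models. Alternatives were a pseudocount of 0.1, no filter, a minimum mean of 5 FPKM, other scalings, limma settings, a replicate block and leaving out each library. Python 3.11.15 drew the figures.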

Additional observations from a re-analysis of the deposited data

How the results depend on the processing

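With 3 libraries a group and unknown depth, few calls were stable. No tested member's direction reversed under any alternative. Without the filter on low values, limma called 0 genes higher and 0 lower over all genes (1457 and 2031 at an unadjusted p under 0.05), 0 AP-1 members and 0 genes of the related lists, with a log2 difference of 0.34 for Atf3. Without the trend it called 2 higher and 0 lower, and with quantile normalization 13 and 4, with 0 AP-1 members and 0 genes of the related lists in both and Atf3 at 0.34 and 0.32. Median of ratios scaling gave 184 lower, 0 AP-1 members, Atf3 at 0.37, and 0 other bZIP factors or MAP kinase genes. Rescaling to a common total gave 924 lower, among them 2 other bZIP factors, 4 MAP kinase genes and 1 AP-1 partner. A minimum mean of 5 FPKM gave 2 other bZIP factors higher and 2 lower and 2 MAP kinase genes lower, and robust hyperparameters gave 2 MAP kinase genes lower. The cause of these shifts was not tested.

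Leaving out each library in turn, the calls ran from 1 to 1160 higher and from 0 to 1948 lower over all genes, from 0 to 4 for AP-1 members, and from 0.27 to 0.42 for the difference of Atf3. Among other bZIP factors they ran from 0 to 5 higher and from 0 to 6 lower, among MAP kinase genes from 0 to 1 and from 0 to 7, among early response genes from 0 to 9 and from 0 to 1, among AP-1 partners from 0 to 1 and from 0 to 4, and among reported targets from 0 to 16 and from 0 to 6. The highest counts were all without control replicate 1. Leaving out any other library gave at most 3 genes higher and 1 lower in all.

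Whether the replicate numbers pair the samples was not settled. Deviations of same-numbered libraries from their group means correlated at 0.06, -0.03 and 0.16. Over all pairings of a tachypaced with a control library these correlations ran from -0.16 to 0.16. With 3 libraries a group, deviations from the group mean are tied to each other, so the values cannot decide it. With the replicate number as a block, 334 genes were higher and 591 lower, 1 AP-1 member was called, and Atf3 had an adjusted p of 0.0378 by limma. The block gave 2 other bZIP factors and 4 MAP kinase genes lower, and 1 MAP kinase gene, 1 early response gene and 8 reported targets higher.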
